A study of Mus musculus with 31 samples.

Results

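The genes described here were 10 classic markers of glia and astrocytes: Fabp7, Slc1a3, Slc1a2, Glul, Aldoc, S100b, Aqp4, Gfap, Vim and Nes. They were taken by symbol from the 47729 genes of the count table, each matched to its Ensembl identifier, and all 10 were among the 19332 genes with enough counts to test. The counts came from 31 pieces of nerve, cut by laser microdissection out of frozen sections of mouse embryos that carry the Sox10:H2BVenus BAC transgene, in which nuclear Venus fluorescence of Sox10-expressing cells guided the cut. Every library, the trigeminal nerve included, carried this transgene, and no untreated or mutant group was compared. Olfactory nerve of the lamina propria of the olfactory mucosa was taken at E11.5 (4 pieces from 2 embryos), E13.5 (7 pieces from 4 embryos) and E16.5 (4 pieces from 4 embryos). The olfactory nerve layer (ONL) around the olfactory bulb was taken at E13.5 (5 pieces from 4 embryos) and at E16.5 as inner ONL, nearest the bulb, and outer ONL, farthest from it (4 pieces from 4 embryos each). The study reports that these cuts followed position and did not resolve the glia of inner and outer ONL that differ in their molecules. It also reports bulb tissue in the inner ONL pieces, and used outer ONL for its comparisons with the nerves at E16.5. Branches of the trigeminal nerve near the olfactory system were taken at E16.5 (3 pieces from 3 embryos). The study cut them from the same sections as the olfactory regions, so the E16.5 groups share embryos. The comparisons ask how olfactory ensheathing cells (OECs) of the nerve and of the ONL differ from each other and from trigeminal Schwann cells, and how they change with stage.

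Each piece was bulk tissue pooled from several sections, so a lower level can mean fewer glial cells or less RNA of that gene per cell, and these cannot be told apart. For 10 of the 16 early libraries the sample label differed from the group under which the study averaged them. The group means of the study follow from the libraries regrouped in that way and not from the libraries as labelled. The regrouped libraries are used below, and values with these libraries grouped by label, in the same fit, are given on the log2 scale where they change a call or move a called value by over 1.5-fold. At E11.5 and E13.5 some pieces shared an embryo and the labels do not say which, so p-values over early pieces are too small.

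OECs and Schwann cells are glia of neural crest origin that wrap peripheral axons, and OECs share several traits with central astrocytes and radial glia. Astrocytes take up glutamate through the transporters encoded by Slc1a3 (GLAST) and Slc1a2 (GLT-1) and convert it to glutamine with glutamine synthetase (Glul). Fabp7 encodes the brain lipid-binding protein of radial glia and immature glia, Aldoc a glycolytic aldolase of astrocytes, S100b a calcium-binding protein and Aqp4 a water channel of astrocyte endfeet. Vim, Nes and Gfap encode intermediate filaments that mark, in turn, many immature and mesenchymal cells, neural progenitors, and mature or reactive glia.

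RefSeq gave promoter windows (GRCm38.p6) for 9 of the 10 genes. The 4 sequences here are shown because Fabp7, Slc1a3 and Aldoc were higher in ONL than in nerve at E16.5 and Gfap was lower. Each runs 5′ to 3′ on the strand of its gene and stops before any annotated exon, and the Gfap window, set on the RefSeq start, lies within the longer GENCODE gene. Capitals mark the letters TGGGAA, the core bound by the Notch effector RBPJ, and ACAAT, a core bound by SOX factors, on either strand.
Fabp7 (chr10:57784673-57784880, plus strand): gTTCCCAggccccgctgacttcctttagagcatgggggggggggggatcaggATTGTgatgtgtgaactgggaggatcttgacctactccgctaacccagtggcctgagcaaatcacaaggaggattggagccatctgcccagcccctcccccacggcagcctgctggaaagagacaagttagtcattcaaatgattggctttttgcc
Slc1a3 (chr15:8710808-8711057, minus strand): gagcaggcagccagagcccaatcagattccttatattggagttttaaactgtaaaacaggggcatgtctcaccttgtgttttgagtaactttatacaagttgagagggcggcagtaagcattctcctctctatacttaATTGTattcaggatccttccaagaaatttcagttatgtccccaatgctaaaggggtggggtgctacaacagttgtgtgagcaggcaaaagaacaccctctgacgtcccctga
Aldoc (chr11:78322823-78322967, plus strand): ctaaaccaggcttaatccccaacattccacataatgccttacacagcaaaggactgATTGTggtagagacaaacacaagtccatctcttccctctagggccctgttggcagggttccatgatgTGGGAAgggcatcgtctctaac
Gfap (chr11:102897201-102897450, minus strand): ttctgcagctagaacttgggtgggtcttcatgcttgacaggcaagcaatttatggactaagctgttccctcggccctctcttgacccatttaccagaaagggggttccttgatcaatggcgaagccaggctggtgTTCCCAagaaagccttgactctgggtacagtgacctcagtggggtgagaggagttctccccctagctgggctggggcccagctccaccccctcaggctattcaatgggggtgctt
In full windows of 250 bases before to 50 after the start, TGGGAA or its reverse complement was present for Fabp7, Aldoc, S100b and Gfap, 4 of 9 genes, and in 25.56% of all 32851 windows. ACAAT or its reverse complement was present for Fabp7, Slc1a3, Aldoc and Nes, again 4 of 9, and in 31.02% of all windows. The RBPJ letters thus lay both in genes that were higher in ONL and in Gfap, which was lower there.

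Total counts ran from 3512627 to 36705535 per library. At E16.5 the 3 trigeminal nerve libraries held 30221586 to 32508725 counts and the other 12 held 13379107 to 16800784. Sox10, the gene behind the fluorescent label, was counted in every library, at 39.9 to 85.4 CPM in E13.5 olfactory nerve, the lowest group, and 572 to 712 CPM in E16.5 outer ONL, the highest. Levels are given as CPM, counts scaled to the size of the library by the trimmed mean of M values (TMM). Differences are log2 fold changes with their standard error (SE), and calls are those with an adjusted p under 0.05 by the quasi-likelihood test of edgeR across all 19332 genes.

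At E16.5, 8 of the 10 genes differed between outer ONL and olfactory nerve, 6 higher and 2 lower in outer ONL, where 22.0% of all genes were called and 10.2% of all genes were higher and 11.8% lower. Against trigeminal nerve, 6 genes differed in outer ONL (5 higher, 1 lower), with 25.8% of all genes called, 2615 of 19332 higher and 2376 lower. Between olfactory and trigeminal nerve 6 differed (4 higher and 2 lower in olfactory nerve, 23.6% of all genes called, 13.0% of all genes were higher and 10.6% lower). Inner and outer ONL differed in 4 (2 higher and 2 lower in inner ONL, 14.2% of all genes called, 8.21% of all genes were higher and 5.96% lower). The median log2 fold change of the 10 genes was 1.41 between outer ONL and olfactory nerve, 1.90 between outer ONL and trigeminal nerve and 0.60 between olfactory and trigeminal nerve. For all genes tested these medians were 0.01, 0.01 and -0.01. Libraries did not overlap for 7 of the 10 genes between outer ONL and olfactory nerve (24.3% of all genes), 8 between outer ONL and trigeminal nerve (34.0%), 7 between the nerves (33.7%) and 4 between inner and outer ONL (18.8%).

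**Figure D1:**
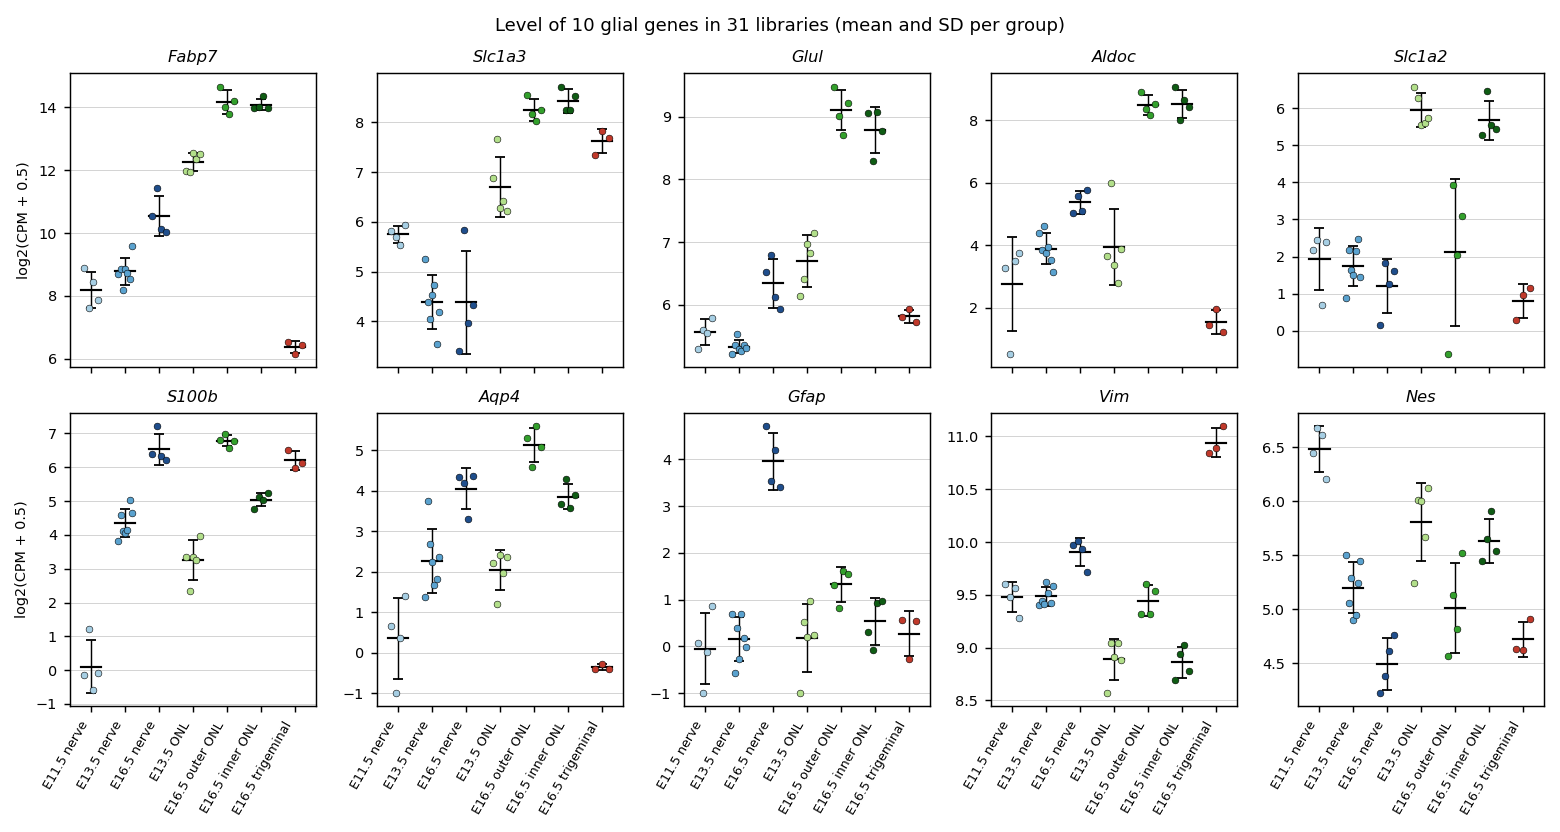
Level of each of the 10 genes in 31 libraries on a log2(CPM + 0.5) axis, 1 panel a gene with its own axis range. Points are libraries, and lines and bars are the mean and SD of each group. Fabp7 lay at 14058 to 25988 CPM in outer ONL and 70.9 to 91.2 CPM in trigeminal nerve, and Gfap was above 10 CPM in the 4 E16.5 olfactory nerve libraries and in no other.

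Fabp7 (chr10:57784881-57788450, GRCm38 as for all positions below) had the highest level per kilobase of transcript of the 10 genes in all ONL groups. In E16.5 outer ONL its 4 libraries held 25988, 16546, 14058 and 19109 CPM, and in inner ONL 16370.5, 16662, 21279 and 16120.0 CPM. E16.5 olfactory nerve held 1499.6, 2738, 1109 and 1054 CPM, and trigeminal nerve 91.2, 70.9 and 85.9 CPM. No outer ONL library overlapped with either nerve, and inner and outer ONL overlapped. Outer ONL was 11.8-fold above olfactory nerve (log2 fold change 3.56 ± 0.31 SE, adjusted p = 8.42e-10) and 229-fold above trigeminal nerve (log2 fold change 7.84 ± 0.43 SE, adjusted p = 8.12e-14). Olfactory nerve was in turn 19.4-fold above trigeminal nerve (log2 fold change 4.28 ± 0.36 SE, adjusted p = 3.85e-10). For inner against outer ONL the interval of the log2 fold change ran from -0.65 to 0.44 (adjusted p = 0.895).

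The early libraries placed Fabp7 in the same order of regions. E13.5 ONL held 4021, 3906, 6006, 5225 and 5902 CPM, E13.5 olfactory nerve 293 CPM (lowest), 421 CPM (median) and 769 CPM (highest), and E11.5 olfactory nerve 469, 194, 343 and 231 CPM. ONL lay above nerve at E13.5 in every library (log2 fold change 3.46 ± 0.24 SE, adjusted p = 2.27e-12, p-values over pieces too small as some share an embryo), whereas by label the difference was -1.57 (adjusted p = 0.0721). From E13.5 to E16.5 Fabp7 rose 3.51-fold in olfactory nerve (adjusted p = 1.9e-06), by label 0.43 (adjusted p = 0.655), and 3.78-fold from E13.5 ONL to outer ONL (log2 fold change 1.92 ± 0.27 SE, adjusted p = 1.07e-06), where the value by label was 5.56 (adjusted p = 3.44e-06). Between E11.5 and E13.5 nerve the difference did not pass the test (log2 fold change 0.56 ± 0.25 SE, adjusted p = 0.0811), and by label it was -2.01 (adjusted p = 0.0221). Without the library labelled E13.5 olfactory nerve replicate 4 or the library labelled E13.5 ONL replicate 2 it passed, at 0.70 (adjusted p = 0.028) and 0.83 (adjusted p = 0.017).

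Of the 2 glutamate transporters, Slc1a3 (chr15:8634124-8710764) separated olfactory nerve from the rest of the E16.5 groups. Outer ONL held 375, 287, 259.9 and 305 CPM and inner ONL 422, 303, 302 and 368 CPM. Olfactory nerve held 10.1, 56.4, 15.1 and 19.7 CPM, and trigeminal nerve 163, 228 and 205 CPM. Every olfactory nerve library was below every library of the other 3 groups, and replicate 2 was the highest of the 4. Slc1a3 was 12.1-fold higher in outer ONL than in olfactory nerve (log2 fold change 3.60 ± 0.40 SE, adjusted p = 5.92e-08) and 7.84-fold lower in olfactory than in trigeminal nerve (log2 fold change -2.97 ± 0.40 SE, adjusted p = 1.39e-06). Without olfactory nerve replicate 2 these log2 differences were 4.35 (adjusted p = 8.32e-10) and -3.73 (adjusted p = 9.3e-09). Outer ONL exceeded trigeminal nerve in every library, yet the difference did not pass the test (log2 interval -0.14 to 1.39, adjusted p = 0.26). In a fit of those groups alone it passed (0.64, adjusted p = 0.0166).

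At the early stages Slc1a3 was 118, 203, 77.6, 84.7 and 74.2 CPM in E13.5 ONL, 11.1 CPM (lowest), 20.4 CPM (median) and 37.7 CPM (highest) in E13.5 olfactory nerve and 56.0, 51.7, 46.0 and 60.8 CPM in E11.5 olfactory nerve. ONL again lay above nerve without overlap (log2 fold change 2.36 ± 0.30 SE, adjusted p = 2.89e-07), on pieces that partly share embryos, and by label the difference was 0.64 (adjusted p = 0.258). In the nerve it fell from E11.5 to E13.5 (log2 fold change -1.31 ± 0.31 SE, adjusted p = 0.00156; by label -2.01, adjusted p = 0.00137) and did not differ by the test between E13.5 and E16.5 (log2 fold change 0.22 ± 0.32 SE, adjusted p = 0.649; by label -0.24, adjusted p = 0.726). From E13.5 ONL to E16.5 outer ONL it rose 2.75-fold (log2 fold change 1.46 ± 0.34 SE, adjusted p = 0.000851; by label 2.72, adjusted p = 4.28e-05).

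Slc1a2 (chr2:102658659-102790784) had another pattern, with its highest levels in E13.5 ONL and E16.5 inner ONL. E13.5 ONL held 95.2, 76.5, 46.4, 48.1 and 52.9 CPM and inner ONL 38.0, 87.0, 45.9 and 43.0 CPM. Outer ONL held 0.153, 14.7, 3.63 and 8.06 CPM, olfactory nerve at E16.5 0.619, 3.03, 1.89 and 2.55 CPM, and trigeminal nerve 0.721, 1.44 and 1.73 CPM. Inner ONL did not overlap with outer ONL, which overlapped with both nerves. Inner ONL exceeded outer ONL 7.99-fold (log2 fold change 3.00 ± 0.59 SE, adjusted p = 0.00051), but in a fit of the 2 groups alone the call was lost (3.00, adjusted p = 0.0714). Without outer ONL replicate 2 the value was 3.74 (adjusted p = 0.000135). Outer ONL exceeded olfactory nerve by 1.72 ± 0.61 on the log2 scale (adjusted p = 0.0399), a call that 14 of 19 alternatives lost. With replicate number as a block it was 1.17 (adjusted p = 0.153), and without outer ONL replicate 2 it was 0.98 (adjusted p = 0.289). The difference between outer ONL and trigeminal nerve (log2 fold change 2.36 ± 0.68 SE, adjusted p = 0.00953) was lost in 5 of 18 alternatives. These included the fit by label (2.36, adjusted p = 0.125), the fit of those groups alone (2.38, adjusted p = 0.0941) and the fits without outer ONL replicate 2 (1.62, adjusted p = 0.0795) or trigeminal nerve replicate 1 (2.08, adjusted p = 0.0614).

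Levels of 7 forebrain and olfactory bulb markers (Pax6, Emx1, Eomes, Tbr1, Neurod6, Dlx1 and Dlx2) moved with Slc1a2. Their summed level was 569 to 709.7 CPM in E13.5 ONL and 131 to 269 CPM in inner ONL, against 4.27 to 49.7 CPM in outer ONL, 11.4 to 20.0 CPM in E16.5 olfactory nerve and 17.4 to 21.2 CPM in trigeminal nerve. In early nerve it was 7.26 to 19.1 CPM at E11.5 and 14.2 to 29.1 CPM at E13.5. Neurod6 had 0 counts in all E11.5 libraries, and Emx1 and Neurod6 had 0 counts in all trigeminal nerve libraries. All 7 were called higher in inner than in outer ONL, as were 8.21% of all genes. The part of bulb tissue in the level of Slc1a2 was not tested. Slc1a2 was low in early nerve, with 1.34 CPM (lowest), 2.59 CPM (median) and 5.04 CPM (highest) at E13.5 and 4.03, 4.94, 1.12 and 4.78 CPM at E11.5. Between E11.5 and E13.5 nerve it did not differ by the test (log2 fold change -0.31 ± 0.52 SE, adjusted p = 0.682), and by label it fell (-2.66, adjusted p = 0.0171). At E13.5 it was 20.9-fold higher in ONL than in nerve (log2 fold change 4.39 ± 0.50 SE, adjusted p = 3.7e-08; some pieces share an embryo, so this p is too small), by label -1.60 (adjusted p = 0.151), and it fell from E13.5 ONL to E16.5 outer ONL (log2 fold change -3.25 ± 0.59 SE, adjusted p = 4.45e-05; by label 0.94, adjusted p = 0.407). Without outer ONL replicate 2 that fall was -3.99 (adjusted p = 1.48e-05). An antisense gene, Gm13872, overlaps exons of Slc1a2 and held 41 counts over all libraries, against 8516 for Slc1a2.

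**Figure D2:**
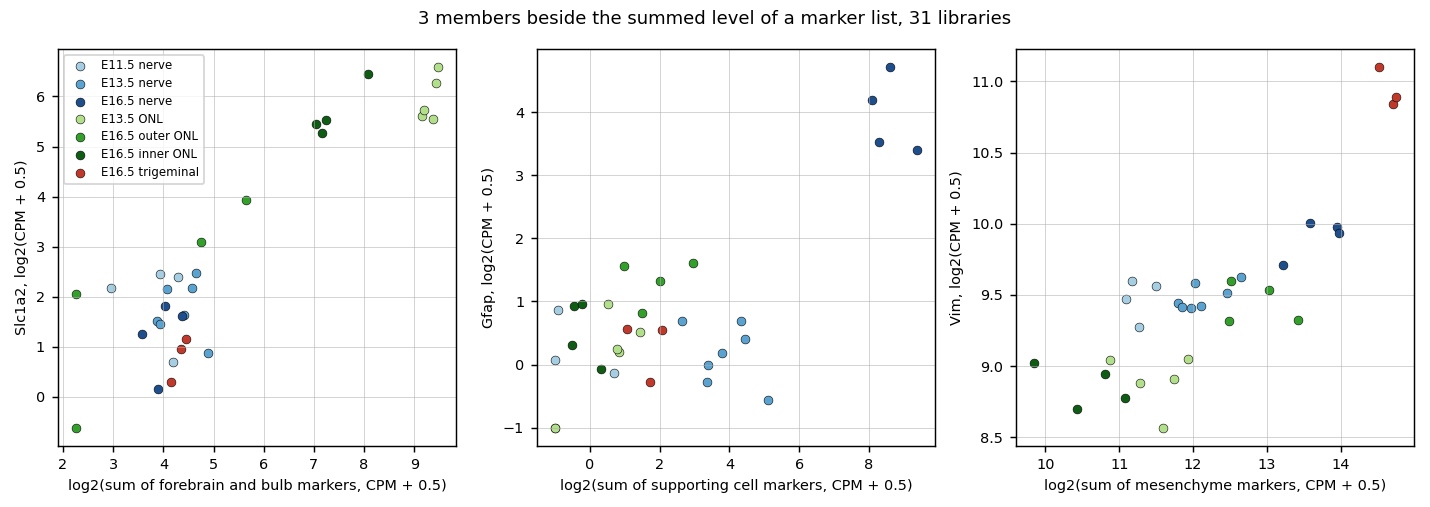
Log2 level of Slc1a2, Gfap and Vim (y axes, CPM + 0.5) against the log2 summed level of forebrain and bulb, supporting cell and mesenchyme markers (x axes, CPM + 0.5) in 31 libraries coloured by group. The E13.5 ONL and inner ONL libraries are high on both axes for Slc1a2, the 4 E16.5 olfactory nerve libraries for Gfap, and the 3 trigeminal nerve libraries for Vim.

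Glul (chr1:153899944-153909723), which turns glutamate into glutamine, was high in both ONL groups. It was 715, 518, 420.1 and 598 CPM in outer ONL and 533, 312, 539 and 435 CPM in inner ONL. In E16.5 olfactory nerve it was 91.1, 111, 69.1 and 60.6 CPM, and in trigeminal nerve 55.5, 60.4 and 52.1 CPM. Both ONL groups lay above both nerves in every library, and the 2 nerves did not overlap either. Outer ONL was 6.79-fold above olfactory nerve (log2 fold change 2.76 ± 0.21 SE, adjusted p = 1.29e-10) and 10.1-fold above trigeminal nerve (log2 fold change 3.33 ± 0.24 SE, adjusted p = 1.06e-11). Olfactory against trigeminal nerve missed the threshold (log2 fold change 0.57 ± 0.22 SE, adjusted p = 0.0566), while 10 of 18 alternatives passed it, among them total count scaling at 0.81 (adjusted p = 0.00383) and the fit without olfactory nerve replicate 3 or 4, at 0.65 (adjusted p = 0.0416) and 0.70 (adjusted p = 0.0245). With Teddm2, which overlaps exons of Glul, 601 counts were listed over all libraries, against 87516 for Glul.

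In E13.5 ONL Glul was 69.7, 84.5, 125, 114 and 141 CPM, in E13.5 nerve 36.8 CPM (lowest), 39.0 CPM (median) and 45.9 CPM (highest), and in E11.5 nerve 38.6, 48.1, 46.6 and 54.9 CPM. It was higher in ONL than in nerve at E13.5 (log2 fold change 1.43 ± 0.16 SE, adjusted p = 4.08e-08, with embryos shared by pieces; by label -0.27, adjusted p = 0.522), with no overlap. Between E13.5 and E16.5 it rose 2.08-fold in the nerve (adjusted p = 3.53e-05; by label 0.60, adjusted p = 0.118) and 5.25-fold from ONL to outer ONL (log2 fold change 2.39 ± 0.19 SE, adjusted p = 9.57e-11; by label 3.63, adjusted p = 2.7e-09). Between E11.5 and E13.5 nerve it did not differ by the test (log2 fold change -0.24 ± 0.18 SE, adjusted p = 0.305), and by label it fell (-0.85, adjusted p = 0.0354).

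Aldoc (chr11:78322968-78327781), the aldolase gene, was nearly silent in trigeminal nerve and high in both ONL groups at E16.5. Outer ONL held 479, 326, 286 and 366 CPM and inner ONL 541, 256, 401 and 341 CPM. Olfactory nerve held 32.2, 47.3, 33.9 and 54.7 CPM, and trigeminal nerve 2.24, 3.39 and 1.84 CPM. The 2 ONL groups overlapped with each other only. Aldoc was 8.67-fold higher in outer ONL than in olfactory nerve (log2 fold change 3.12 ± 0.55 SE, adjusted p = 8.06e-05), 146-fold higher than in trigeminal nerve (log2 fold change 7.19 ± 0.77 SE, adjusted p = 1.78e-08), and 16.8-fold higher in olfactory than in trigeminal nerve (log2 fold change 4.07 ± 0.67 SE, adjusted p = 2.92e-05).

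Before E16.5, Aldoc was low in all 3 groups. E13.5 ONL held 12.2, 62.9, 9.88, 6.44 and 14.3 CPM, of which 62.9 CPM came from the library labelled E11.5 olfactory nerve replicate 2. E13.5 nerve held 8.37 CPM (lowest), 14.036 CPM (median) and 23.9 CPM (highest) and E11.5 nerve 9.22, 0.951, 10.8 and 13.0 CPM. ONL and nerve did not differ by the test at E13.5 (log2 fold change 0.50 ± 0.44 SE, adjusted p = 0.43; by label -0.92, adjusted p = 0.162). From E13.5 ONL to outer ONL Aldoc rose 16.9-fold (log2 fold change 4.08 ± 0.53 SE, adjusted p = 3.03e-07), and without the library labelled E11.5 olfactory nerve replicate 2 the value was 5.08 (adjusted p = 3.24e-09). By label it was 5.43 (adjusted p = 5.79e-08). In the nerve it rose 2.77-fold (adjusted p = 0.014). Since some early pieces share an embryo, these p-values are too small.

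S100b (chr10:76253853-76261159), the calcium-binding protein gene, was lowest in inner ONL at E16.5. Outer ONL held 112, 125, 95.2 and 108 CPM, olfactory nerve 84.2, 148, 79.3 and 73.0 CPM and trigeminal nerve 91.5, 62.2 and 68.6 CPM. Inner ONL held 26.8, 34.5, 31.9 and 37.6 CPM, below every library of the other 3 E16.5 groups. Outer ONL lay above trigeminal nerve without overlap and overlapped with olfactory nerve, as did the 2 nerves with each other. S100b was 3.37-fold lower in inner than in outer ONL (log2 fold change -1.75 ± 0.36 SE, adjusted p = 0.000701), and lower in inner ONL than in olfactory nerve (log2 fold change -1.56 ± 0.35 SE, adjusted p = 0.000809). Outer ONL and olfactory nerve did not differ by the test (log2 interval -0.48 to 0.87, adjusted p = 0.757), nor did outer ONL and trigeminal nerve (log2 interval -0.17 to 1.31, adjusted p = 0.29) or the 2 nerves (log2 interval -0.36 to 1.11, adjusted p = 0.521). In a fit of outer ONL and trigeminal nerve alone the difference passed (0.59, adjusted p = 0.028). Inner ONL was also below trigeminal nerve (log2 fold change -1.18 ± 0.37 SE, adjusted p = 0.012), a call lost without trigeminal nerve replicate 1 (-0.95, adjusted p = 0.084). With early libraries grouped by label in the common fit, which changes the estimate of the spread, inner ONL was called against none of these groups. The values were then -1.75 (adjusted p = 0.198) against outer ONL, -1.56 (adjusted p = 0.137) against olfactory nerve and -1.18 (adjusted p = 0.291) against trigeminal nerve.

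S100b had the steepest rise of the 10 genes from E11.5 to E13.5 nerve. E11.5 nerve held 0.397, 1.85, 0.166 and 0.453 CPM, of which the highest came from the library labelled E13.5 ONL replicate 3. E13.5 nerve held 13.498 CPM (lowest), 17.3 CPM (median) and 32.0 CPM (highest) and E13.5 ONL 9.68, 4.54, 9.75, 9.03 and 15.1 CPM. It rose 27.3-fold from E11.5 to E13.5 nerve without overlap (log2 fold change 4.77 ± 0.42 SE, adjusted p = 3.87e-10; the 4 E11.5 pieces came from 2 embryos, so this p is too small). Without the library labelled E13.5 ONL replicate 3 the value was 5.84 (adjusted p = 1.01e-11). By label the difference was 1.23 (adjusted p = 0.282). It rose a further 4.68-fold from E13.5 to E16.5 nerve (adjusted p = 2.46e-06) and 11.3-fold from E13.5 ONL to outer ONL (log2 fold change 3.50 ± 0.36 SE, adjusted p = 4.98e-09; by label 4.45, adjusted p = 0.000123). At E13.5 it was lower in ONL than in nerve (log2 fold change -1.08 ± 0.31 SE, adjusted p = 0.00718; by label -1.93, adjusted p = 0.057), with overlap between the groups.

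Aqp4 (chr18:15389496-15410982), the water channel gene, was expressed in the olfactory groups and close to absent from trigeminal nerve. It was 38.7, 23.5, 48.0 and 33.1 CPM in outer ONL, 12.4, 19.0, 11.4 and 14.3 CPM in inner ONL and 19.8, 17.8, 9.30 and 20.2 CPM in olfactory nerve. Trigeminal nerve held 0.252, 0.325 and 0.257 CPM, which were 7 to 9 counts a library. All 12 olfactory libraries at E16.5 lay above all 3 trigeminal ones, 126-fold for outer ONL (log2 fold change 6.97 ± 0.81 SE, adjusted p = 8.42e-08) and 58.9-fold for olfactory nerve (log2 fold change 5.88 ± 0.78 SE, adjusted p = 1.13e-06). Outer ONL exceeded olfactory nerve in every library, but the test was not passed (log2 fold change 1.09 ± 0.53 SE, adjusted p = 0.148). In a fit of those 2 groups alone it passed without a block (1.07, adjusted p = 0.0125) and with replicate number as a block (1.07, adjusted p = 0.0349). Aqp4 was also lower in inner than in outer ONL without overlap, again without passing (log2 fold change -1.33 ± 0.53 SE, adjusted p = 0.103), and the fit of these 2 groups alone gave -1.32 (adjusted p = 0.00216).

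At E11.5, Aqp4 was 1.09, 0, 0.788 and 2.13 CPM in the nerve, 0 in the library labelled E13.5 ONL replicate 3. E13.5 nerve held 2.104 CPM (lowest), 4.22 CPM (median) and 13.0 CPM (highest) and E13.5 ONL 4.15, 1.80, 4.81, 3.43 and 4.69 CPM. It rose from E11.5 to E13.5 nerve (log2 fold change 2.29 ± 0.55 SE, adjusted p = 0.00142, a p too small as pieces share embryos), by label 0.50 (adjusted p = 0.637), and without the library labelled E13.5 ONL replicate 5 it was 2.95 (adjusted p = 0.000418). It rose again to E16.5 nerve (log2 fold change 1.77 ± 0.47 SE, adjusted p = 0.0047), and 9.48-fold from E13.5 ONL to outer ONL (log2 fold change 3.24 ± 0.54 SE, adjusted p = 1.37e-05; by label 4.44, adjusted p = 8.89e-06).

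Of the filament genes, Gfap (chr11:102887336-102900912) was the lowest and was restricted in place and time. E16.5 olfactory nerve held 25.7, 11.1, 17.9 and 10.1 CPM, or 179 to 416 counts a library. Outer ONL held 1.99, 1.26, 2.56 and 2.44 CPM, inner ONL 0.740, 0.451, 1.41 and 1.45 CPM and trigeminal nerve 0.973, 0.325 and 0.956 CPM. No library outside E16.5 olfactory nerve exceeded 2.56 CPM. Gfap was 7.83-fold lower in outer ONL than in olfactory nerve (log2 fold change -2.97 ± 0.65 SE, adjusted p = 0.0011), and 21.4-fold higher in olfactory than in trigeminal nerve (log2 fold change 4.42 ± 0.79 SE, adjusted p = 8.74e-05). It was also lower in inner ONL than in olfactory nerve (log2 fold change -3.99 ± 0.69 SE, adjusted p = 2.95e-05). In the nerve it rose 23.0-fold from E13.5 (0.173 CPM (lowest), 0.629 CPM (median) and 1.11 CPM (highest)) to E16.5 (log2 fold change 4.53 ± 0.57 SE, adjusted p = 8.51e-07; embryos shared at E13.5). At E11.5 and E13.5 all 16 libraries held 0 to 41 counts, and the library labelled E13.5 ONL replicate 3 and the library labelled E11.5 olfactory nerve replicate 1 held 0.

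As a sum, markers of supporting cells of the olfactory epithelium were highest in E16.5 olfactory nerve, like Gfap. The summed level of Cyp2g1, Cyp2a5, Cbr2 and Muc2 was 274 to 665 CPM in E16.5 olfactory nerve, 5.70 to 33.6 CPM in E13.5 nerve, 1.47 to 7.33 CPM in outer ONL, 0.202 to 0.752 CPM in inner ONL and 1.59 to 3.71 CPM in trigeminal nerve. In E11.5 nerve it was 0 to 1.12 CPM and in E13.5 ONL 0 to 2.23 CPM, and Cyp2g1 and Cbr2 had 0 counts in all E11.5 libraries. All 4 were called higher in E16.5 olfactory nerve than in outer ONL, and all 4 higher than in trigeminal nerve, as were 11.8% and 13.0% of all genes. Within the 4 olfactory nerve libraries, the one with the highest supporting cell sum had the lowest Gfap level, as the plot of marker sums shows. The mean sum was 16.2 CPM in E13.5 nerve and 3.66 CPM in outer ONL. The mean Gfap level was 0.667 and 2.06 CPM there, on few counts. Over all 31 libraries, Cbr2 of this list was the gene most like Gfap (Pearson's r = 0.832). The part of supporting cells in the Gfap level was not tested.

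Vim (chr2:13573927-13582826), expressed in many immature cells, ran against most of the other genes. Trigeminal nerve held 1833, 1893 and 2191 CPM and E16.5 olfactory nerve 1006, 1028, 977 and 838 CPM. Outer ONL held 638, 776, 639 and 743 CPM and inner ONL 415, 491, 521 and 438 CPM. The 4 groups formed an order without overlap, from trigeminal nerve down to inner ONL. Outer ONL was lower than olfactory nerve (log2 fold change -0.46 ± 0.11 SE, adjusted p = 0.00347) and 2.82-fold lower than trigeminal nerve (log2 fold change -1.50 ± 0.12 SE, adjusted p = 1.19e-10). Olfactory nerve was 2.05-fold lower than trigeminal nerve (log2 fold change -1.04 ± 0.12 SE, adjusted p = 1.64e-07), and inner ONL was lower than outer ONL (log2 fold change -0.58 ± 0.11 SE, adjusted p = 0.000476).

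The sum of mesenchyme markers was also highest in trigeminal nerve and lowest in inner ONL at E16.5. The summed level of Col1a1, Col1a2, Col3a1, Dcn, Lum, Pdgfra, Prrx1 and Twist1 was 23488 to 27627 CPM in trigeminal nerve, 9552 to 16189.7 CPM in olfactory nerve, 5732 to 11009.5 CPM in outer ONL and 921 to 2168 CPM in inner ONL. It was 2187 to 2883 CPM in E11.5 nerve, 3546 to 6416 CPM in E13.5 nerve and 1871 to 3909.8 CPM in E13.5 ONL, and none of the 8 was at 0 in any group. The sums of olfactory nerve and outer ONL overlapped at E16.5. Of the 8 genes, 3 were called lower in olfactory than in trigeminal nerve (median log2 fold change -0.26, 10.6% of all genes lower), 5 in outer ONL than in olfactory nerve (median -1.01, 11.8% lower) and all 8 in inner than in outer ONL (median -2.06, 5.96% lower). None was called higher in these comparisons. Their part in the Vim level was not tested. At E13.5 Vim was 379, 526.2, 479.6, 529 and 471 CPM in ONL and 679 CPM (lowest), 695 CPM (median) and 788 CPM (highest) in nerve, again lower in ONL (log2 fold change -0.59 ± 0.10 SE, adjusted p = 1.35e-05, embryos shared; by label 0.10, adjusted p = 0.547). E11.5 nerve held 775, 711, 757 and 620.2 CPM, which did not differ from E13.5 nerve by the test (log2 interval -0.19 to 0.20, adjusted p = 0.983). By label Vim rose from E11.5 to E13.5 nerve (0.50, adjusted p = 0.00508). Vim rose from E13.5 to E16.5 in the nerve (log2 fold change 0.42 ± 0.10 SE, adjusted p = 0.00191) and from ONL to outer ONL (log2 fold change 0.55 ± 0.11 SE, adjusted p = 0.000126; by label -0.05, adjusted p = 0.768).

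Nes (chr3:87971078-87980451), the progenitor filament, was highest at the earliest stage. E11.5 nerve held 86.6, 102, 97.3 and 73.1 CPM, E13.5 nerve 29.4 CPM (lowest), 37.3 CPM (median) and 44.8 CPM (highest) and E16.5 nerve 18.2, 20.4, 23.9 and 26.6 CPM. The nerve groups did not overlap between stages, and Nes fell from E11.5 to E13.5 (log2 fold change -1.29 ± 0.17 SE, adjusted p = 5.83e-07, from 2 and 4 embryos, so p is too small; by label -0.42, adjusted p = 0.214) and from E13.5 to E16.5 (log2 fold change -0.72 ± 0.18 SE, adjusted p = 0.0028). E13.5 ONL held 37.4, 64.2, 63.7, 50.2 and 69.3 CPM, inner ONL 43.0, 49.7, 59.7 and 45.9 CPM and outer ONL 23.2, 34.7, 27.7 and 45.5 CPM. Nes was higher in ONL than in nerve at E13.5 (log2 fold change 0.64 ± 0.16 SE, adjusted p = 0.00221; by label 0.99, adjusted p = 0.00257) and fell from E13.5 ONL to outer ONL (log2 fold change -0.80 ± 0.19 SE, adjusted p = 0.000889). At E16.5 inner ONL exceeded olfactory nerve without overlap (log2 fold change 1.15 ± 0.20 SE, adjusted p = 2.38e-05). The smaller differences of outer ONL from olfactory nerve (log2 fold change 0.56 ± 0.20 SE, adjusted p = 0.039) and of inner from outer ONL (log2 fold change 0.59 ± 0.20 SE, adjusted p = 0.0371), between groups that overlapped, were lost in 15 and 11 of 19 alternatives. Trigeminal nerve held 24.3, 24.1 and 29.5 CPM, with no call against either outer ONL or olfactory nerve.

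**Figure D3:**
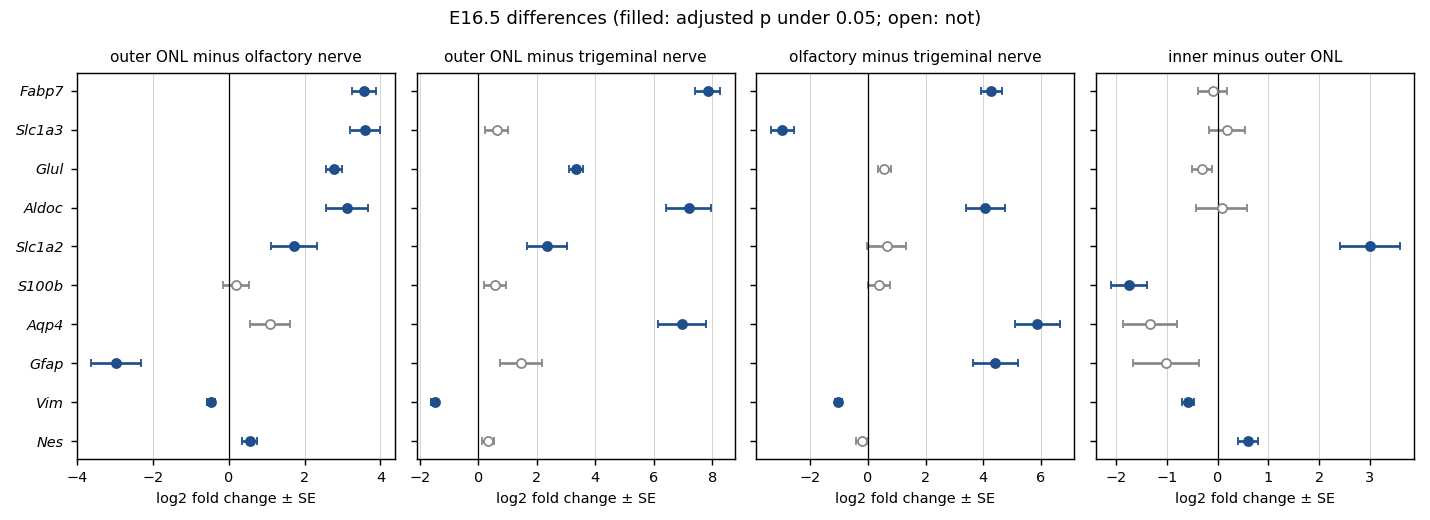
Log2 fold change with its SE (x axes) of the 10 genes (y axis) in 4 comparisons at E16.5. Filled points had an adjusted p under 0.05 and open points did not. Fabp7, Glul and Aldoc lie to the right in the comparisons of outer ONL with both nerves, Gfap lies to the left of 0 against olfactory nerve, and Slc1a3 lies to the left only in olfactory against trigeminal nerve.

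Inner ONL differed from olfactory nerve in 9 of the 10 genes (6 higher, 3 lower, 35.5% of all genes called, 17.7% of all genes were higher and 17.8% lower), all but Aqp4 (log2 fold change -0.23 ± 0.53 SE, adjusted p = 0.778). Against trigeminal nerve 8 differed (6 higher, 2 lower, 38.2% of all genes called, 19.2% of all genes were higher and 19.0% lower). Libraries did not overlap for 9 genes in either comparison, as for 36.6% and 45.3% of all genes. These comparisons share libraries with those above. Bulb marker levels were higher in inner than in outer ONL, and the part of bulb tissue in any inner ONL difference was not tested. Fabp7 was 213-fold and Aldoc 154-fold higher in inner ONL than in trigeminal nerve (adjusted p = 1.38e-14 and 5.83e-09).

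Across stages, the 10 genes were counted in each region. In olfactory nerve from E11.5 to E13.5, 4 changed (2 higher, 2 lower), with 36.6% of all genes called (20.2% of all genes were higher and 16.4% lower), or 17.4% by label. By label 5 of the 10 changed, Vim higher and Fabp7, Slc1a3, Slc1a2 and Glul lower, and Slc1a3 was the 1 gene called in both. From E13.5 to E16.5 nerve, 8 changed (7 higher, 1 lower), with 28.8% of all genes called (15.2% of all genes were higher and 13.6% lower), or 25.0% by label. Nes was the gene that fell, while Fabp7, S100b, Gfap, Aqp4, Glul, Aldoc and Vim rose. By label 6 changed, with Fabp7 and Glul no longer called. From E13.5 ONL to E16.5 outer ONL, 9 changed (7 higher, 2 lower), with 41.9% of all genes called (21.9% of all genes were higher and 20.0% lower), or 35.1% by label. Slc1a2 and Nes were lower there. By label 8 changed, with Slc1a2 and Vim no longer called and Gfap called higher, at 1.87 (adjusted p = 0.025) against 1.37 ± 0.63 SE (adjusted p = 0.0832). At E13.5, 7 genes differed between ONL and nerve (5 higher, 2 lower, 31.6% of all genes called, 15.5% of all genes were higher and 16.1% lower), but by label only Nes did (17.6% of all genes). The E13.5 comparison therefore depended on how the libraries were assigned. At E16.5 no library was regrouped, but the fit shares its spread with the early libraries, and by label 7 calls over the 6 comparisons of E16.5 groups were lost and 0 gained (Slc1a2 and Nes between outer ONL and olfactory nerve, Slc1a2 between outer ONL and trigeminal nerve, S100b and Nes between inner and outer ONL, and S100b between inner ONL and each nerve), with adjusted p from 0.125 to 0.291. Libraries did not overlap for 5 genes between E13.5 ONL and nerve (19.6% of all genes), 3 between E11.5 and E13.5 nerve (21.2%), 7 between E13.5 and E16.5 nerve (21.2%) and 8 between E13.5 ONL and outer ONL (32.2%).

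The difference between ONL and nerve itself changed from E13.5 to E16.5 for 4 of the 10 genes (2 higher, 2 lower), with 12.4% of all genes called (5.63% of all genes were higher and 6.76% lower). This is the log2 difference of outer ONL from nerve at E16.5 minus that of ONL from nerve at E13.5. It grew for Aldoc (by 2.61 ± 0.69 SE, adjusted p = 0.00944) and Glul (by 1.34 ± 0.26 SE, adjusted p = 0.00064). For Gfap it turned from 0.19 at E13.5 (adjusted p = 0.856) to a lower level in outer ONL at E16.5, a change of -3.16 ± 0.86 SE (adjusted p = 0.0124). For Slc1a2 it shrank (-2.67 ± 0.78 SE, adjusted p = 0.0193). For Fabp7 the interval ran from -0.60 to 0.82 (adjusted p = 0.916). By label 7 genes changed (12.6% of all genes), and only Gfap, Glul and Aldoc were called in both. By label the change was 5.13 (adjusted p = 0.000883) for Fabp7, 2.96 (adjusted p = 0.00231) for Slc1a3, 2.69 (adjusted p = 0.0373) for Aqp4 and -0.56 (adjusted p = 0.0292) for Vim, none of them called otherwise. It was 3.03 (adjusted p = 3.83e-05) for Glul, 4.03 (adjusted p = 0.00047) for Aldoc and -2.62 (adjusted p = 0.0499) for Gfap, and Slc1a2 turned to 3.32 (adjusted p = 0.0757). The Slc1a2 call was also lost without olfactory nerve replicate 2 (-2.41, adjusted p = 0.0523) and with no filter on low counts (-2.65, adjusted p = 0.0597), and its value was -3.41 (adjusted p = 0.00338) without outer ONL replicate 2. The Aldoc value was 3.61 (adjusted p = 0.000112) without the library labelled E11.5 olfactory nerve replicate 2. Sox10 moved too, by 1.05 ± 0.34 SE (adjusted p = 0.038), with the early libraries regrouped.

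**Figure D4:**
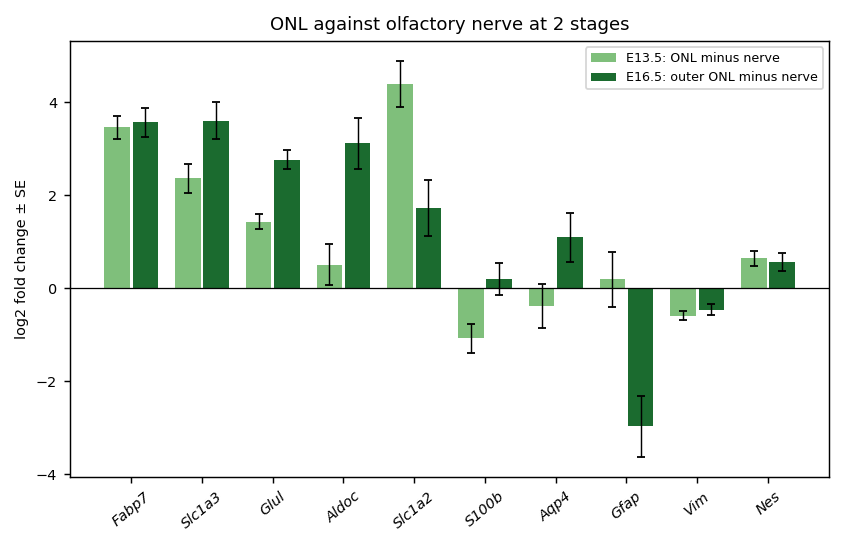
Log2 fold change of ONL over olfactory nerve (y axis) for the 10 genes (x axis) at E13.5 (light bars, ONL minus nerve) and E16.5 (dark bars, outer ONL minus nerve), with error bars of 1 SE and early libraries regrouped. Fabp7 has bars of 3.46 and 3.56, Aldoc is near 0 at E13.5 only, and Gfap is below 0 at E16.5 only.

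Sox10 was itself 5.13-fold higher in outer ONL than in olfactory nerve at E16.5 (log2 fold change 2.36 ± 0.27 SE, adjusted p = 1.19e-07) and lower in olfactory than in trigeminal nerve (log2 fold change -1.41 ± 0.28 SE, adjusted p = 0.000283). Levels were therefore also expressed relative to Sox10 in the same library, as a description. Fabp7 was 29.4 ± 8.25 times the Sox10 CPM in outer ONL, 33.4 ± 8.52 in inner ONL, 12.5 ± 3.31 in olfactory nerve and 0.247 ± 0.0207 in trigeminal nerve (SD, n = 4, 4, 4 and 3). It remained highest in ONL without overlap with either nerve. Slc1a3 was 0.425 to 0.601 times Sox10 in outer ONL, 0.104 to 0.314 in olfactory nerve and 0.483 to 0.769 in trigeminal nerve, lowest in olfactory nerve again.

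For Glul the 3 olfactory groups of E16.5 overlapped on this scale, whereas for Aldoc outer ONL overlapped with both inner ONL and olfactory nerve, and inner ONL (0.594 to 0.911) lay above olfactory nerve. Glul was 0.734 to 1.15 times Sox10 in outer ONL and 0.567 to 0.934 in olfactory nerve, against 0.141 to 0.204 in trigeminal nerve. Aldoc was 0.483 to 0.768 in outer ONL and 0.263 to 0.526 in olfactory nerve, against 0.00496 to 0.0114 in trigeminal nerve. S100b was 0.651 to 0.863 in olfactory nerve, above outer ONL (0.152 to 0.186) and trigeminal nerve (0.185 to 0.271). Vim was 1.02 to 1.15 in outer ONL, below olfactory nerve (5.72 to 10.3) and trigeminal nerve (5.44 to 6.38).

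Relative to Sox10, 6 of the 10 genes did not overlap between outer ONL and olfactory nerve, against 95.9% of all genes. Between outer ONL and trigeminal nerve the count was 7 of 10 against 71.2%, and between the 2 nerves 9 of 10 against 80.2%. For inner ONL the counts were 3 of 10 against outer ONL (14.7% of all genes), 8 against olfactory nerve (87.6%) and 7 against trigeminal nerve (48.6%). They were 4 between E13.5 ONL and nerve (34.1%), 4 between E13.5 and E16.5 nerve (44.4%) and 5 between E13.5 ONL and outer ONL (88.3%). From E11.5 to E13.5 nerve 9 of 10 were higher relative to Sox10 without overlap, against 92.9% of all genes without overlap. Sox10 itself fell 5.58-fold there (adjusted p = 7.75e-10, a p too small as pieces share embryos). The early values relative to Sox10 used the regrouped libraries. The mean summed level of Sox10, Erbb3, Foxd3 and Sox5 was 469 CPM in E11.5 nerve and 115 CPM in E13.5 nerve. By label it was 219 and 143 CPM. The share of glia in each piece was not measured.

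**Figure D5:**
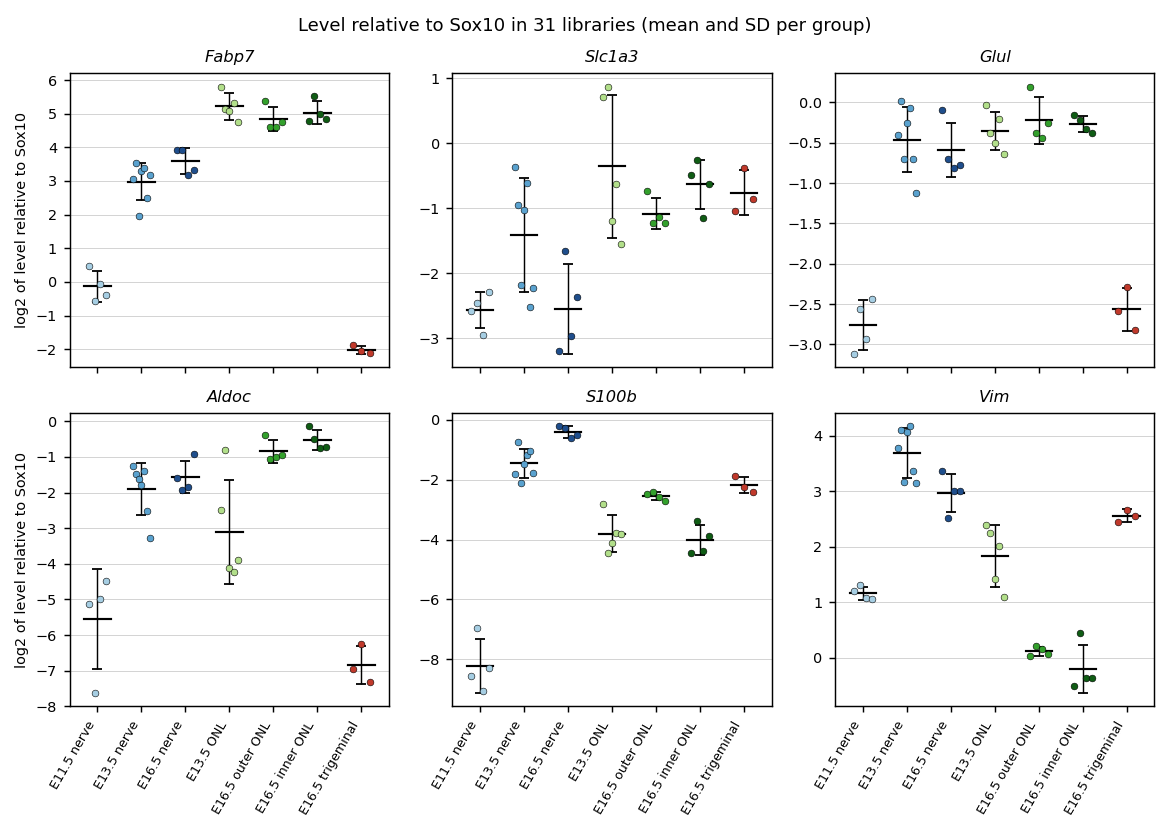
Level of Fabp7, Slc1a3, Glul, Aldoc, S100b and Vim relative to Sox10 (y axes, log2 of the ratio) in 31 libraries by group, with the mean and SD of each group. At E16.5, Fabp7 lies highest in both ONL groups, Slc1a3 lowest in olfactory nerve, S100b highest in olfactory nerve, and Aldoc lowest in trigeminal nerve.

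Per kilobase of exonic length, the order of genes differed between ONL and trigeminal nerve at E16.5. In outer ONL the mean level was 15140.3 CPM per kb for Fabp7, 169 for Glul, 147 for Vim, 112 for Aldoc, 74.2 for S100b and 35.9 for Slc1a3. Aqp4, Nes, Slc1a2 and Gfap were at 5.75, 5.11, 0.505 and 0.489 CPM per kb. In trigeminal nerve Vim led with 416 CPM per kb, followed by Fabp7 with 66.1, S100b with 49.9, Slc1a3 with 23.3 and Glul with 16.8. The astrocyte filament gene Gfap was thus among the lowest of the 10 in outer ONL, where Fabp7 was highest.

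A further list of 28 genes known from astrocytes and radial glia gave a wider view, and 26 of them were tested. Between outer ONL and olfactory nerve 12 were higher, 6 lower and 8 not called, with a median log2 fold change of 0.72 against 0.01 for all genes, of which 10.2% were higher and 11.8% lower. Slc15a2, a peptide transporter, was higher (log2 fold change 2.68 ± 0.45 SE, adjusted p = 3.77e-05), as was Ttyh1, a chloride channel family gene (log2 fold change 2.58 ± 0.23 SE, adjusted p = 1.07e-09). Mlc1, an astrocyte membrane protein gene, had 0 counts in all 4 olfactory nerve libraries and 0.765 CPM in outer ONL. Sox2 (log2 fold change -3.40 ± 0.95 SE, adjusted p = 0.00896), Clu (log2 fold change -3.13 ± 0.46 SE, adjusted p = 6.28e-06) and Fgfr3 (log2 fold change -2.85 ± 0.63 SE, adjusted p = 0.00111) were lower, and Sox2 and Fgfr3 encode a progenitor transcription factor and a growth factor receptor.

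Against trigeminal nerve 12 of the 26 were higher in outer ONL, 6 lower and 8 not called, with a median of 0.60 (0.01 for all genes, of which 2615 of 19332 were higher and 2376 lower). The gap junction gene Gjb6 (log2 fold change 7.49 ± 1.03 SE, adjusted p = 1.44e-06), Slc15a2 (log2 fold change 6.39 ± 0.62 SE, adjusted p = 2.52e-09) and the brevican gene Bcan (log2 fold change 4.12 ± 0.88 SE, adjusted p = 0.000599) had the largest rises. The potassium channel gene Kcnj10 (log2 fold change -4.41 ± 0.75 SE, adjusted p = 3.3e-05), the tenascin C gene Tnc (log2 fold change -3.57 ± 0.58 SE, adjusted p = 1.9e-05) and Sox2 (log2 fold change -3.13 ± 0.97 SE, adjusted p = 0.0165) had the largest falls. In olfactory nerve from E13.5 to E16.5, 18 of the 26 rose and none fell, with a median of 1.48 (-0.02 for all genes, 15.2% higher and 13.6% lower). Inner ONL had 9 of the 26 higher and 10 lower than olfactory nerve (median -0.34, 17.7% and 17.8% of all genes). It had 1 higher and 6 lower than outer ONL (median -0.47, 8.21% and 5.96%). Against trigeminal nerve 12 were higher and 9 lower in inner ONL (median 0.65, 19.2% and 19.0%). In regrouped E13.5 ONL, 9 were higher and 5 lower than in nerve (median -0.09, 15.5% and 16.1%).

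The genes whose log2 levels were most like each marker over the 31 libraries were found by Pearson's r among 10416 genes. The libraries share stage, region and dissection, so these are descriptions. For Fabp7 they were Lypd6 (r = 0.957), Spock2 (r = 0.955) and Bmp7 (r = 0.953), and for Glul Ptgds (r = 0.982), Kctd14 (r = 0.975) and Psmb11 (r = 0.969). For Slc1a3 they were Tmeff2 (r = 0.939), Mdga2 (r = 0.915) and Elovl6 (r = 0.906), and for Slc1a2 Plppr1 (r = 0.944), Gria2 (r = 0.941) and Sez6 (r = 0.938). For Gfap they were Cbr2 (r = 0.832), Sfrp4 (r = 0.786) and Apod (r = 0.784), of which Cbr2 is in the supporting cell list above, and for Vim Capg (r = 0.951), Rassf1 (r = 0.940) and Rhoj (r = 0.935). Aldoc was nearest to Slc1a4 (r = 0.916), Fam213a (r = 0.913) and Zbtb20 (r = 0.912), and Aqp4 to Fam213a (r = 0.879), Zbtb20 (r = 0.858) and Tst (r = 0.841). S100b was nearest to Ifi27 (r = 0.965), Nr3c1 (r = 0.955) and Ctso (r = 0.941), and Nes to Dlgap4 (r = 0.887), Mtus2 (r = 0.886) and Igdcc3 (r = 0.867). By Spearman's rho, none of the 3 recurred for Gfap, Slc1a2, Aqp4 and Vim, 1 did for S100b and Glul, and 2 did for Fabp7, Slc1a3, Aldoc and Nes. Among the 10 markers themselves, Fabp7 and Glul were the closest pair (r = 0.885) and S100b and Nes the most opposed (r = -0.828).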

How the data were processed

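RNA of 31 laser-microdissected pieces was amplified (SMART-seq v4), and libraries were made with Nextera XT and sequenced on an Illumina NextSeq. The authors aligned reads with TopHat2 2.1.0 to mm10 and deposited raw counts per Ensembl gene from HTSeq, and whether counting used strand is not given in the sources used here. Counts of the 47729 named genes were used as deposited, and 1 row without a gene name was left out. The authors' group means served only to check which libraries they grouped. Lengths and positions came from GENCODE M21 (GRCm38).

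The main test was the edgeR 4.0.16 quasi-likelihood test (R 4.3.3, limma 3.58.1) with TMM scaling, filterByExpr by group, and 1 fit over 31 libraries and 7 groups, adjusted after Benjamini-Hochberg over 19332 genes. DESeq2 1.42.0, other scalings, filters, groupings and left-out libraries were alternatives. Calculations used Python 3.11.15, NumPy 2.4.6, pandas 2.3.3 and matplotlib 3.10.9, and the fit was tested on simulated data. No label says that early pieces are independent animals, so p-values there measure the spread between pieces. At E16.5, olfactory nerve and outer ONL of the same replicate number deviated together from their group means (r = 0.257 to 0.516 over 11570 genes in 4 pairs). Libraries of unlike number gave r from -0.3889 to 0.3875. These ranges overlapped, so the numbers may pair these groups, but the labels do not say so. The E16.5 groups share embryos, and which libraries share one is not given. The main fit has no block, so its p-values at E16.5 take no account of shared embryos. The value of an alternative fit with replicate number as a block is given where its call differed from that of the main fit. For marker likeness, genes of at least 10 CPM on average were searched and the 3 highest r were named. In the further list, the 3 largest rises and falls past the threshold were named. Some markers, and an alternative reference planned for the levels relative to Sox10, are not reported here. A count of 3 was the floor for detection. The members, lists and motifs were chosen with earlier results of these data known.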

Additional observations from a re-analysis of the deposited data

Results flagged for a closer look

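Of 66 sets of 4 to 7 libraries, 8 had 1 library far from the others by Dixon's criterion, and chance gives about 1 in 20. S100b was 1.85 CPM in the library labelled E13.5 ONL replicate 3, the highest of the E11.5 nerve. In E13.5 nerve, Fabp7 reached 769 CPM in the library labelled E13.5 ONL replicate 1, Aqp4 13.0 CPM in the library labelled E13.5 olfactory nerve replicate 3 and Glul 45.9 CPM in that labelled replicate 4. Aldoc reached 62.9 CPM in E13.5 ONL, in the library labelled E11.5 olfactory nerve replicate 2. At E16.5, S100b was highest in olfactory nerve replicate 2 (148 CPM), Fabp7 in inner ONL replicate 3 (21279 CPM) and Slc1a2 in inner ONL replicate 2 (87.0 CPM).

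For 4 genes the log2 difference between ONL and nerve changed from E13.5 to E16.5 by the interaction test. It was -3.16 for Gfap, -2.67 for Slc1a2, 1.34 for Glul and 2.61 for Aldoc, and with early libraries grouped by label -2.62, 3.32, 3.03 and 4.03.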

How the results depend on the processing

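Grouping the early libraries by label had the widest effect. It left 1 of 10 genes called between E13.5 ONL and nerve (7 otherwise), 1 also in a fit of those groups alone, a setting chosen after seeing the data, and 0 with a replicate block, where edgeR gave 3 at an unadjusted p under 0.05. It gave 7 for the change of that difference (4 otherwise) and 2 between inner and outer ONL (4 otherwise), as did a minimum log2 fold change of 1. In the common fit, by label alone and with the block, the E13.5 difference of ONL from nerve turned to -1.57, -1.56 and -0.92 for Fabp7, -1.60, -1.57 and -0.32 for Slc1a2, -0.27, -0.26 and -0.17 for Glul, 0.10, 0.0971 and 0.15 for Vim, -0.35, -0.35 and -0.55 for Gfap and -0.92, -0.92 and -1.29 for Aldoc. By label the nerve values from E11.5 to E13.5 turned to -2.01 for Fabp7, -0.20 for Gfap and -0.54 for Aldoc, and from E13.5 to E16.5 to -0.24 for Slc1a3. From E13.5 ONL to outer ONL they turned to 0.94 for Slc1a2 and -0.0544 for Vim, and the change of the ONL-nerve difference to 3.32 for Slc1a2 and -0.56 for Vim.

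Total count scaling turned Nes in olfactory against trigeminal nerve to 0.0440, and no filter turned Vim from E11.5 to E13.5 to -0.00929, both uncalled. Leaving out 1 library at a time gave ranges that crossed 0 only for uncalled values: -0.22 to 0.0653 for Fabp7 and -0.13 to 0.21 for Aldoc between inner and outer ONL, -0.11 to 0.38 for Gfap, -0.52 to 0.00782 for Aqp4 and -0.50 to 0.73 for Aldoc between E13.5 ONL and nerve, -0.14 to 1.08 for Gfap and -0.0851 to 0.0703 for Vim from E11.5 to E13.5 nerve, -0.53 to 0.49 for Slc1a3 from E13.5 to E16.5 nerve, and -0.10 to 0.50 for Fabp7 and -0.28 to 0.0267 for Nes in the change of the ONL-nerve difference. Without 1 library the number of genes called was 6 to 8 between outer ONL and olfactory nerve, 5 to 6 against trigeminal nerve, 6 to 7 between the nerves and 3 to 4 between inner and outer ONL. The replicate block in a fit of the compared groups alone left 8 genes called between outer ONL and olfactory nerve. Aqp4 was gained, Slc1a2 was lost and no other call of that comparison changed. In that fit without the block Aqp4 was also gained (1.07, adjusted p = 0.0125). Slc1a2 (1.70, adjusted p = 0.2125) and Nes (0.53, adjusted p = 0.1161) were lost. In a fit of all E16.5 libraries, Nes was lost between outer ONL and olfactory nerve with the block (0.47, adjusted p = 0.0644) and without it (0.49, adjusted p = 0.099). The E16.5 groups share embryos, but whether the numbers pair the other groups is not given by the labels. With the block in fits of the compared groups alone, Slc1a2 was lost between outer ONL and trigeminal nerve (1.23, adjusted p = 0.42). Between inner and outer ONL, Slc1a2 (3.47, adjusted p = 0.0508) and Nes (0.63, adjusted p = 0.0622) were lost and Aqp4 (-1.31, adjusted p = 0.0097) was gained. Glul was gained between the nerves (0.71, adjusted p = 0.0272), and Slc1a3 between inner ONL and trigeminal nerve (0.75, adjusted p = 0.0165). With the block in a fit of all E16.5 libraries, Gfap was gained between outer ONL and trigeminal nerve (1.47, adjusted p = 0.0125). Without the block, fits of the same libraries changed each of these calls too. Adjusted p was then 0.0714 for Slc1a2, 0.0708 for Nes and 0.00216 for Aqp4 between inner and outer ONL. It was 0.0333 for Glul between the nerves and 0.0016 for Slc1a3 between inner ONL and trigeminal nerve. For outer ONL against trigeminal nerve it was 0.0941 for Slc1a2 and 0.0282 for Gfap. The causes of these changes were not tested.

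Over all genes, the E13.5 ONL comparison had 6107 calls, 3404 by label, 785 by label in those groups alone and 4 with the block. E11.5 to E13.5 nerve had 7075 and 3362 by label, inner against outer ONL 2740 and 1644 by label, and outer ONL against trigeminal nerve 4991 and 3313 with the block. Total count scaling moved the median of all genes from 0.01 to -0.13 between outer ONL and olfactory nerve (46.6% of calls higher, then 34.1%) and from -0.01 to 0.24 between the nerves (55.0%, then 77.5%). Of the single-gene values under all alternatives, 1326 kept a call and its direction, 80 lost the call (15 of them turned), 40 gained it (2 turned) and 714 had no call in either (26 turned). Gfap, Aqp4 and Slc1a2 rest on few counts in several groups, which limits their precision.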
